A study of Mus musculus with 2 samples.

Results

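Il2ra and 3 genes that mark regulatory T cells, Foxp3, Ctla4 and Tnfrsf18, were followed through CITEseq data (mRNA and DNA-barcoded antibodies read from the same cells) of lymph node DCs. All 4 of 4 genes were found among the 18049 genes listed in each of the 2 libraries, and they were chosen by measured values of these same libraries, so their levels stand here as a description. The naive library held cells of unimmunized B6 mice, and the papain library held cells of B6 mice given OVA plus papain in both rear footpads 1 day earlier. Both were sorted as live MHCIIhi CD11c+ B220- cells. According to the methods, the naive cells came from pooled skin-draining nodes and the papain cells from popliteal nodes, whereas the sample labels give skin-draining nodes as tissue and popliteal nodes in the protocol of both. With 1 library per condition, papain cannot be told apart from node site or library, no value has a replicate, and no test was made. Intervals in parentheses are exact 95% intervals that cover counting error, and they leave out the variation between mice.

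IL-2 acts through a receptor whose alpha chain, CD25, is encoded by Il2ra. CD25 raises the affinity of the receptor for IL-2, while the beta and gamma chains, encoded by Il2rb and Il2rg, carry the signal to JAK kinases and STAT5. Regulatory T cells hold CD25 constantly and depend on IL-2. Foxp3 is the transcription factor that defines them, CTLA-4 is the inhibitory receptor with which they compete for B7 on DCs, and Tnfrsf18 encodes GITR, a costimulatory receptor of the TNF receptor family. DCs can also make CD25, so Il2ra in a DC library may lie in DCs or in T cells that share a droplet with them.

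Il2ra lies at chr2:11642792-11693194, Foxp3 at chrX:7579676-7595243, Ctla4 at chr1:60909025-60915832 and Tnfrsf18 at chr4:156026322-156028894 in the RefSeq annotation of GRCm38.p6, which has the primary sequence of the mm10 build named in the processing notes. All 4 genes had an entry among the RefSeq promoters, Foxp3 with 2 starts. The 250 bases before the start of Il2ra and Tnfrsf18, the 2 members with the most UMIs in unlabelled DCs, are shown, 5′ to 3′ on the plus strand. Capitals mark matches on either strand to the NF-kB consensus or to TTCNNNGAA, the core of STAT binding sites.
Il2ra, chr2:11642542-11642791: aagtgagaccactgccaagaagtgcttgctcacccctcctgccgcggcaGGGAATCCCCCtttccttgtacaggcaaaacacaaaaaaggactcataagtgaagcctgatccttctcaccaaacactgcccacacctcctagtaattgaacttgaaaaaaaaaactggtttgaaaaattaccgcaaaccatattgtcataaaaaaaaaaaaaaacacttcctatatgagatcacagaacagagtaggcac
Tnfrsf18, chr4:156026072-156026321: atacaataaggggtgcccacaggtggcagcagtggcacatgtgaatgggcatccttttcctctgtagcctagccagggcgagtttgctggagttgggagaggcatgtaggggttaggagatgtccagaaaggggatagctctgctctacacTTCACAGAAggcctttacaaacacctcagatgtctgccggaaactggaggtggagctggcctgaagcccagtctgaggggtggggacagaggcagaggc

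The NF-kB match of Il2ra begins 201 bases before the start, with overlapping matches on both strands, and the TTCNNNGAA match of Tnfrsf18 begins 99 bases before it. Of 32851 RefSeq promoter windows of the same length, 7.25% hold the NF-kB consensus and 7.02% hold TTCNNNGAA. The window of Ctla4 and that of the first Foxp3 start hold neither, and that of the second Foxp3 start holds TTCNNNGAA 139 bases before it. A match describes the letters of the window and not the binding of a factor.

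The naive library had 3471 cells at a median of 13764 UMIs (unique molecules counted) and the papain library 7596 cells at 14738. Of these, 3042 and 7306 also had antibody data and an antibody class given by the authors, namely CD301bhi, CD301bint or CD301blo cDC2s, cDC1s and LCs. The remaining droplets, without antibody data, were kept as a group of their own. The deposited conjugation label marks droplets with a UMI of Cd3e, a CD3 chain, or Trac, the T cell receptor alpha constant gene, and it equalled the presence of such a UMI in all but 0 droplets of either library. Droplets with it are called labelled below. The 2 libraries shared 2 cell barcodes. Levels are in CPM, the UMIs of a gene in a group scaled to 1000000 UMIs of that group. These 3′ UMIs differ between genes in how well they are captured, so values of different genes stand side by side and their order is not read as an order of expression.

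Among unlabelled cells, Il2ra was found in every DC class of both libraries. In naive CD301bhi DCs the level was 52.5 CPM (48.3 to 56.9), in CD301bint DCs 63.6 CPM (58.7 to 68.9) and in CD301blo DCs 60.6 CPM (55.6 to 66.1). Naive LCs, with 22.2 CPM (18.3 to 26.6), and naive cDC1s, with 19.1 CPM (16.2 to 22.4), were the lowest groups, and their intervals overlapped. All 3 cDC2 classes thus lay above both other classes in the naive library, and the cDC2 classes overlapped with a neighbour each. In the papain library the level was 118 CPM (115 to 121) in CD301bhi DCs, 132 CPM (128 to 137) in CD301bint DCs and 148 CPM (142 to 154) in CD301blo DCs. Papain LCs had 101 CPM (96.2 to 106) and papain cDC1s 54.5 CPM (46.3 to 63.7). The papain intervals of the 5 classes did not overlap each other, and cDC1s were again the lowest.

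**Figure D1:**
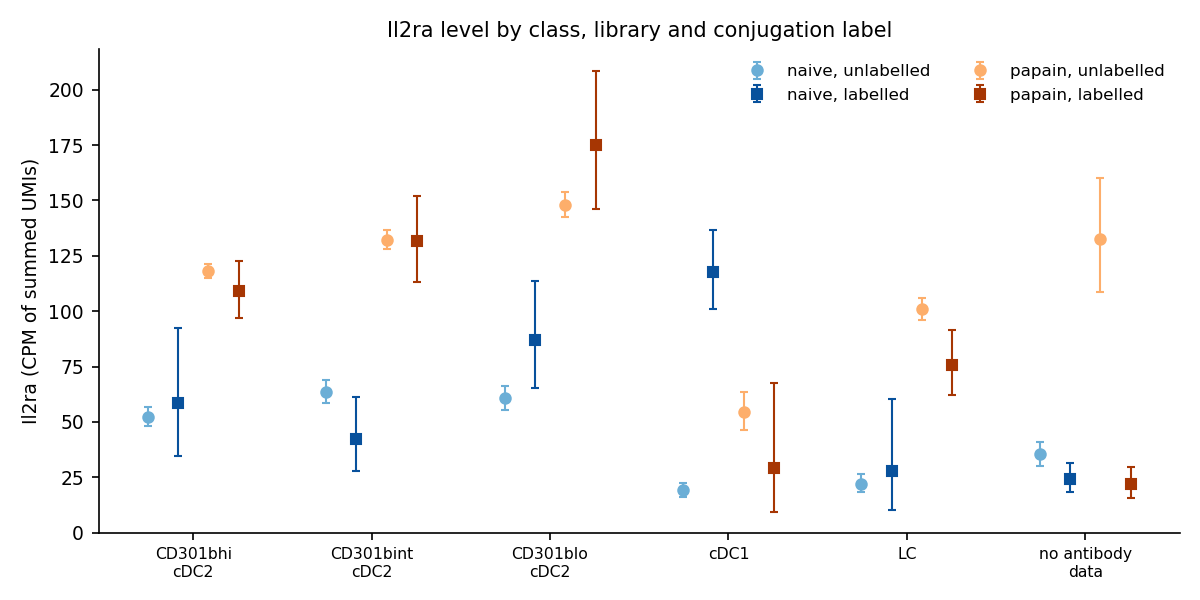
Il2ra level (CPM of summed UMIs, vertical axis) in each antibody class and in droplets without antibody data (horizontal axis), for naive and papain libraries and for droplets with and without the conjugation label; points are levels and bars exact 95% Poisson intervals. Labelled naive cDC1s stand at 118 CPM over 19.1 CPM in unlabelled ones, while the labelled over unlabelled ratio in cDC2s lies between 0.662 and 1.43.

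The share of unlabelled naive cells with an Il2ra UMI was 18.5% of LCs and 22.4% (18.8 to 26.3%) of cDC1s, against 31.8% of CD301blo, 34.4% of CD301bhi and 38.1% (34.2 to 42.0%) of CD301bint DCs. In papain cells it was 30.8% (24.8 to 37.3%) of cDC1s, 48.8% (45.4 to 52.3%) of LCs and 58.2 to 59.3% of the cDC2 classes. Labelled droplets without antibody data, most of them poor in MHCII mRNA, gave a comparison outside the DC classes, although they include T cells that can express the gene. An Il2ra UMI was found in 7.17% (4.23 to 11.2%) of those from naive mice. The papain value was 7.47% (4.49 to 11.5%). These shares came at median depths of 7626 and 6980 UMIs against 15648 in unlabelled naive cDC1s. Each cell was thinned to 8392 UMIs, which left out 151 of 237 and 178 of 241 of these droplets and 44 of 500 unlabelled naive cDC1s. The thinned share was then 10.6% and 11.2% in the comparison droplets and 13.8% in unlabelled naive cDC1s, while naive cDC2 classes had 25.9 to 30.4%. In CPM the naive comparison droplets had 24.1 (18.2 to 31.3), but 49 of their 56 Il2ra UMIs lay in the 34 droplets that were not low in MHCII mRNA. The 203 droplets with under 10% of the DC median of MHCII mRNA had 4.30 CPM (1.73 to 8.86) and an Il2ra UMI in 1.48% (0.306 to 4.26%) of them. Unlabelled naive cDC1s and LCs lay above that level and overlapped the level of all comparison droplets. In the papain library the 211 droplets low in MHCII mRNA had 18.8 CPM (12.58 to 26.97), below all 5 DC classes. The split by MHCII mRNA was chosen after the values were seen. The thinned papain shares were 24.1% in cDC1s, 37.6% in LCs and 45.5 to 52.3% in cDC2s, all above the comparison droplets.

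Between the libraries, Il2ra was higher in the papain cells of all 5 classes. Among unlabelled cells it was 2.25-fold higher (2.07 to 2.46) in CD301bhi DCs, 2.08-fold (1.91 to 2.27) in CD301bint DCs and 2.44-fold (2.22 to 2.69) in CD301blo DCs. In cDC1s it was 2.86-fold higher (2.27 to 3.59), and in LCs 4.55-fold higher (3.76 to 5.56). With labelled cells included, the cDC1 ratio was 1.54-fold (1.27 to 1.86) and the LC ratio 4.42-fold (3.67 to 5.37), while the cDC2 ratios lay between 2.12 and 2.39-fold. The size of the cDC1 difference thus depended on whether labelled droplets were counted, and it stood in the same direction either way. In the paper, cDC2s of naive and immunized mice predominated in different mRNA subclusters. In unlabelled CD301bhi DCs, 5 of 8 DC genes and 2 of 4 cDC2 genes tested were lower by 2-fold or more in papain cells. This held for 3.64% of all genes there. The 2 cDC2 genes were Mgl2, which encodes CD301b, with a log2 ratio of -4.69, and Cd209d, with -3.36. Over all unlabelled cDC2s they had 47.3 and 36.8 CPM in naive and 0.943 and 0.986 CPM in papain cells. They thus passed the minimum of 10 CPM through the naive cells alone, and their count is a description. Of the genes with at least 10 CPM in either library, 2.02% in CD301bhi DCs, 2.28% in CD301bint DCs, 2.54% in CD301blo DCs, 2.69% in cDC1s and 4.17% in LCs were higher by 2-fold or more (after adding 1 CPM) in unlabelled papain cells, and Il2ra was among them in 5 of 5 classes. With 10 CPM added in place of 1 it was past 2-fold in 4 of 5, CD301bint DCs then being at a log2 ratio of 0.95. Since Il2ra was chosen on these values, its place among them is a description. Tnfrsf18 also passed the minimum of 10 CPM in all 5 classes and was past 2-fold in 0 of them, while Foxp3 and Ctla4 passed it in 0 of 5.

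CD301bhi DCs had less Il2ra than CD301blo DCs in both libraries, at 0.865-fold (0.767 to 0.975) in naive and 0.798-fold (0.761 to 0.836) in papain unlabelled cells. Tnfrsf18 had the same direction, at 0.751-fold (0.647 to 0.872) and 0.532-fold (0.496 to 0.570). Both members were thus lower in CPM in the CD301bhi class, by under 2-fold. The paper reports more CD25 protein in CD301b+ than in CD301b- DCs by flow cytometry, a different measure over differently grouped cells. The share of unlabelled naive cells with an Il2ra UMI ran the other way, with 34.4% of CD301bhi and 31.8% of CD301blo DCs. After thinning these shares were nearly level, at 25.9% and 26.1%. In papain cells the shares were 58.2% of CD301bhi and 58.9% of CD301blo DCs. After thinning the papain shares were 45.5% and 52.3%, the same direction as in CPM.

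Tnfrsf18 mRNA was present in unlabelled DCs of every class. In naive cells it was 31.9 CPM (28.6 to 35.4) in CD301bhi, 34.3 CPM (30.8 to 38.2) in CD301bint and 42.4 CPM (38.2 to 47.0) in CD301blo DCs, 43.0 CPM (38.6 to 47.8) in cDC1s and 23.9 CPM (19.9 to 28.6) in LCs. In papain cells the level was 41.0 CPM (39.2 to 42.9), 45.7 CPM (43.2 to 48.2), 77.1 CPM (73.0 to 81.4), 53.4 CPM (45.4 to 62.6) and 25.2 CPM (22.8 to 27.7) in the same order. Papain CD301blo DCs were the highest and LCs the lowest class, and the LC levels of the 2 libraries overlapped. The papain over naive ratio was 1.82-fold (1.62 to 2.05) in CD301blo DCs and 1.05-fold (0.858 to 1.30) in LCs. Over whole DC classes, the conjugation label made little difference to Tnfrsf18. Labelled over unlabelled ratios were 0.843 to 1.74-fold over the 10 groups, each with an interval that includes 1. In droplets without antibody data it was 67.2 CPM in labelled against 30.9 CPM in unlabelled ones of the naive library, and 85.0 against 32.8 CPM in the papain library.

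Ctla4 was almost confined to labelled droplets. Over all naive cells with a class, labelled cells had 13.5 CPM (9.80 to 18.1) and unlabelled ones 0.235 CPM (0.113 to 0.432). In the papain library these were 7.97 CPM (5.91 to 10.5) and 0.0707 CPM (0.0305 to 0.139). Of 179 Ctla4 UMIs in all naive droplets, 93.3% were in labelled ones, as were 90.8% of 152 in the papain library. The highest levels were in labelled droplets without antibody data, with 53.0 CPM (44.0 to 63.2) and 47.0 CPM (37.7 to 57.9). Labelled naive cDC1s had 9.49 CPM (5.19 to 15.9), below the labelled naive droplets without antibody data.

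**Figure D2:**
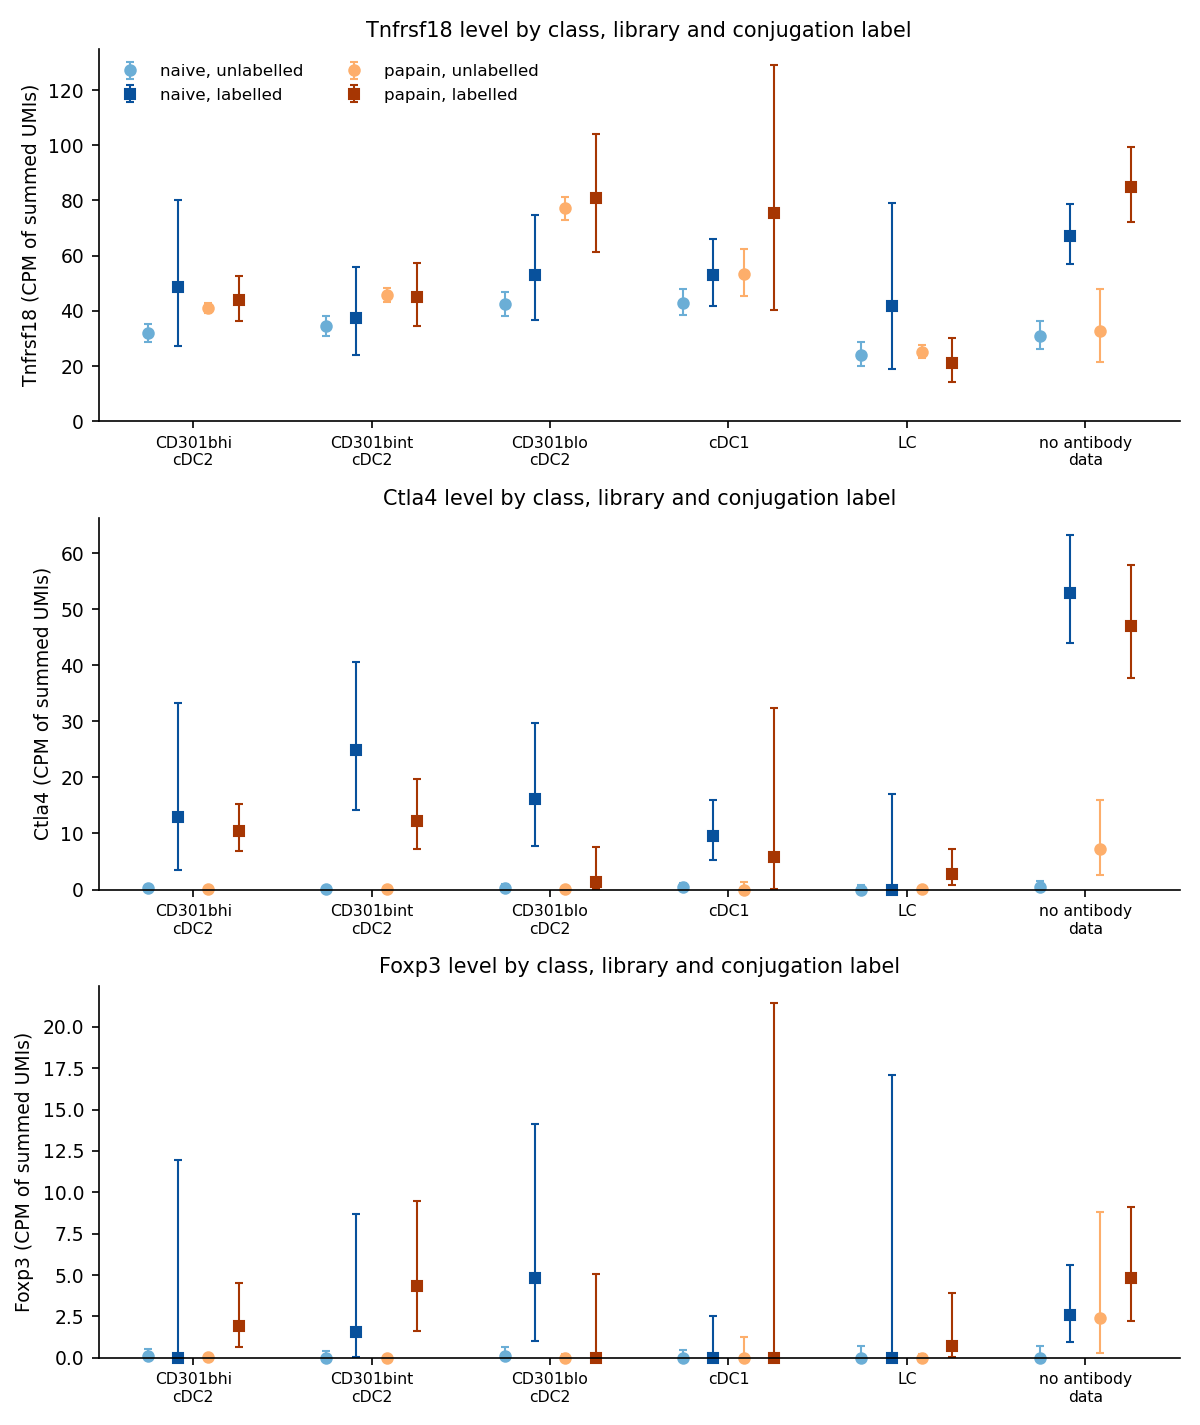
Tnfrsf18, Ctla4 and Foxp3 levels (CPM of summed UMIs, vertical axes) by antibody class (horizontal axis), library and conjugation label; points are levels and bars exact 95% Poisson intervals. Tnfrsf18 lies between 23.9 and 77.1 CPM in unlabelled DCs, whereas Ctla4 is at most 0.374 CPM there and Foxp3 has no UMI in any cDC1.

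Foxp3 was the rarest member, with 38 UMIs in 22 droplets of both libraries, 8 naive and 14 papain. Of these droplets, 16 were labelled, 10 had no antibody data and 0 were cDC1s, and 14 held a single Foxp3 UMI. Of the 22, 16 also held Il2ra, 13 Ctla4, 15 Tnfrsf18 and 13 Ikzf2, which encodes Helios, a factor of many regulatory T cells. The droplet with the most Il2ra was a labelled papain CD301bhi droplet with 18 Il2ra, 5 Foxp3, 22 Ctla4, 7 Tnfrsf18 and 28 Ikzf2 UMIs, and it held 87 UMIs of MHCII genes and Cd74 as well. A labelled papain CD301bint droplet held 5 Foxp3, 5 Ctla4 and 3 Il2ra UMIs. Against these, 4 of the 22 droplets had no UMI of the 6 CD3 and T cell receptor genes Cd3d, Cd3e, Cd3g, Trac, Trbc1 and Trbc2, and each of those 4 had 1 Foxp3 UMI. The Foxp3 droplets thus ranged from one with all 4 members beside MHCII mRNA to unlabelled ones with a single UMI.

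Droplets with Foxp3 held a small part of all Il2ra. They had 12 of 2499 Il2ra UMIs in the naive library (0.480%) and 45 of 14660 in the papain library (0.307%). By class, the highest share was 1.74% in naive CD301blo DCs, against 0.521% in papain CD301bhi DCs and 0 in cDC1s of both libraries. In papain droplets without antibody data it was 5.33%. The Il2ra level of Foxp3 droplets over that of the rest was 2.46-fold in the naive and 1.41-fold in the papain library. The naive levels were 116 CPM (59.8 to 202) and 46.9 CPM (45.1 to 48.8). The papain levels were 170 CPM (124 to 227) and 120 CPM (118 to 122). Of the 12 naive UMIs, 6 lay in an unlabelled CD301blo droplet and 1 in an unlabelled CD301bhi droplet. Each of these had 1 Foxp3 UMI and 0 CD3 or T cell receptor UMIs. Without the droplet with 18 Il2ra UMIs the papain ratio was 0.965-fold, so its direction rested on that 1 droplet, and without the naive droplet with the most Il2ra the naive ratio was 1.38-fold. Removing them moved none of the 10 Il2ra class levels beyond its counting interval.

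Il2ra UMIs were then set against Foxp3 UMIs. In labelled droplets without antibody data there were 9.33 Il2ra UMIs per Foxp3 UMI (4.03 to 26.5) among naive cells and 4.56 (2.18 to 10.7) among papain cells. None of the 56 naive Il2ra UMIs lay in the 3 Foxp3 droplets of that group, which held 0 Il2ra UMIs, whereas the 6 papain ones held Il2ra in 4 of 6. Leaving out the droplet richest in Foxp3 gave 28.0 in the naive library, and taking the droplets low in MHCII mRNA gave 1.17, so this reference rests on few molecules. Labelled naive cDC1s had 174 Il2ra and 0 Foxp3 UMIs. The ratio was 58.0 with Foxp3 set at the 3 UMIs that a count of 0 allows over the group, and the lower limit of its exact interval was 46.7. Unlabelled papain CD301bint and CD301blo DCs had 3706 and 2565 Il2ra UMIs and also 0 Foxp3 UMIs.

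The ratio of Il2ra between labelled and unlabelled cells was highest in naive cDC1s. The 78 labelled cells of 578 had 118 CPM (101 to 137) and the 500 unlabelled cells 19.1 CPM, 6.18-fold apart (4.94 to 7.73). Labelled cells were 13.5% of the cells and 15.5% of the UMIs of this class, and they held 53.2% (47.6 to 58.7%) of its Il2ra UMIs. An Il2ra UMI was found in 61.5% (49.8 to 72.3%) of labelled and 22.4% of unlabelled naive cDC1s, or 49.6% and 13.8% after thinning. In the other naive classes, labelled cells held at most 9.38% of Il2ra UMIs, beside 2.70 to 6.73% of all UMIs. Labelled over unlabelled, naive CD301blo DCs were at 1.43-fold (1.06 to 1.90) and naive CD301bint DCs at 0.662-fold (0.433 to 0.972), in opposite directions. In the papain library the labelled cDC1s were 11 cells with 5 Il2ra UMIs, a level of 0.533-fold (0.171 to 1.27) that of unlabelled ones, and 3.07% of the Il2ra of that class.

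Naive cDC1 Il2ra was divided by the UMIs of the 6 CD3 and T cell receptor genes. The 460 cells with 0 such UMIs had 19.0 CPM (15.9 to 22.4) and the 59 cells with 1 to 2 had 15.7 CPM (9.32 to 24.8). The 4 cells with 3 to 9 had 119 CPM (61.3 to 207), the 16 with 10 to 29 had 110 CPM (77.1 to 152) and the 39 with 30 or more had 189 CPM (157 to 226). Cells with at most 2 T cell UMIs overlapped within counting error whether or not they had any, and each group with 3 or more lay above them.

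**Figure D3:**
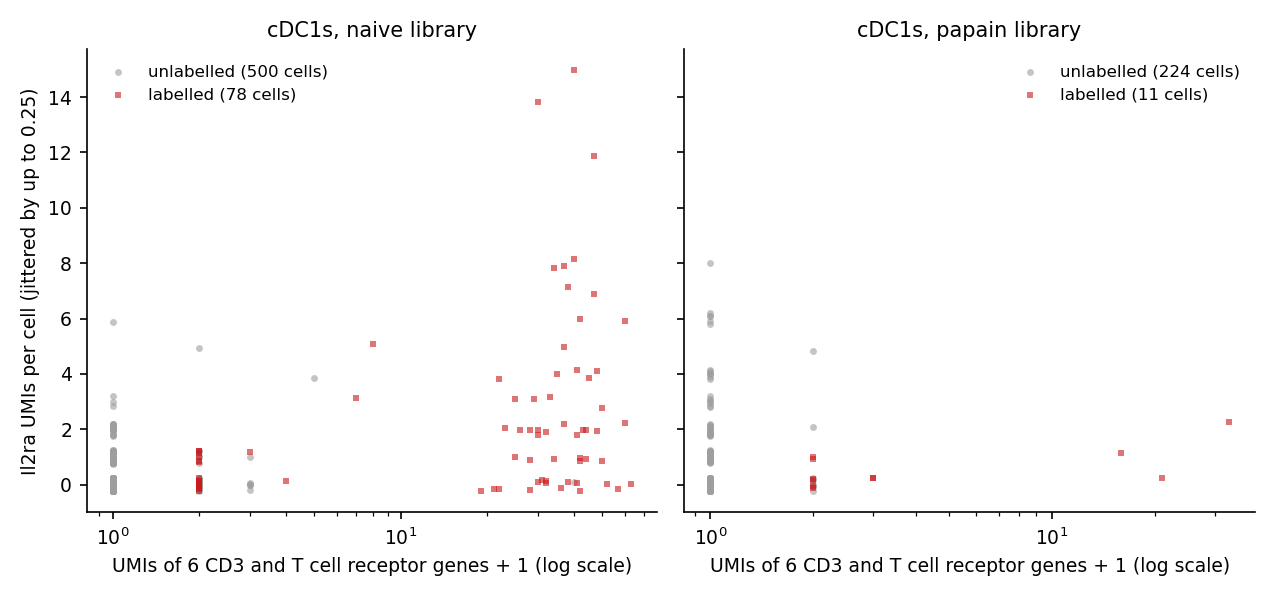
Il2ra UMIs per cell (vertical axis, jittered) against UMIs of 6 CD3 and T cell receptor genes plus 1 (horizontal axis, log scale) in cDC1s of the naive and papain libraries; each point is a cell, red squares are labelled. In the naive library the cells with the most Il2ra, up to 15 UMIs, lie among labelled cells with many T cell UMIs, and in the papain library the highest cell, with 8 UMIs, is unlabelled.

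The antibodies set the labelled naive cDC1s apart. XCR1, the chemokine receptor that identifies cDC1s, had a median value of 0.343 in the 48 labelled cells with Il2ra, 1.22 in the 30 labelled cells without it and 1.31 in the 500 unlabelled cells, on the authors' natural log scale. CD103, which marks migratory cDC1s and also some T cells, was 1.82, 1.40 and 1.26. CD172a, which marks cDC2s, was 1.03, 0.114 and 0.116. CD326 was 0.712, 1.49 and 1.71, the MHCII antibody 4.21, 4.58 and 4.77, and CD11c 1.39, 1.69 and 1.79. The Il2ra-bearing labelled cells were thus lower in XCR1, CD326, MHCII and CD11c and higher in CD172a and CD103 than the unlabelled cells. By these antibodies, low XCR1 with high CD172a goes against the cDC1 class that the authors gave these droplets, and the name cDC1 is kept here for that class.

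Labelled cells were then split at 0.622, the 10th percentile of XCR1 in unlabelled naive cDC1s, a split chosen after the values were seen. The 46 labelled cells below it had 202 CPM of Il2ra (172 to 236) and a median of 36 CD3 and T cell receptor UMIs. The 32 at or above it had 17.8 CPM (9.19 to 31.1) and a median of 1 such UMI. The second group did not differ from unlabelled naive cDC1s beyond counting error, and the first held 162 of the 174 Il2ra UMIs. The mRNA of MHCII genes and Cd74 had a median of 383 CPM below and 3622 CPM at or above that value. Tnfrsf18 was 76.1 CPM below and 25.2 CPM at or above that value, against 43.0 CPM in all unlabelled naive cDC1s. Unlabelled naive cDC1s had 27.2 CPM of Il2ra (16.1 to 42.9) below it and 18.4 CPM (15.4 to 21.7) at or above it. In the papain library, at its own 10th percentile, unlabelled cDC1s had 135 CPM (95.1 to 186) below and 46.1 CPM (38.2 to 55.1) at or above it, so low XCR1 went with more Il2ra there in cells without the label.

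**Figure D4:**
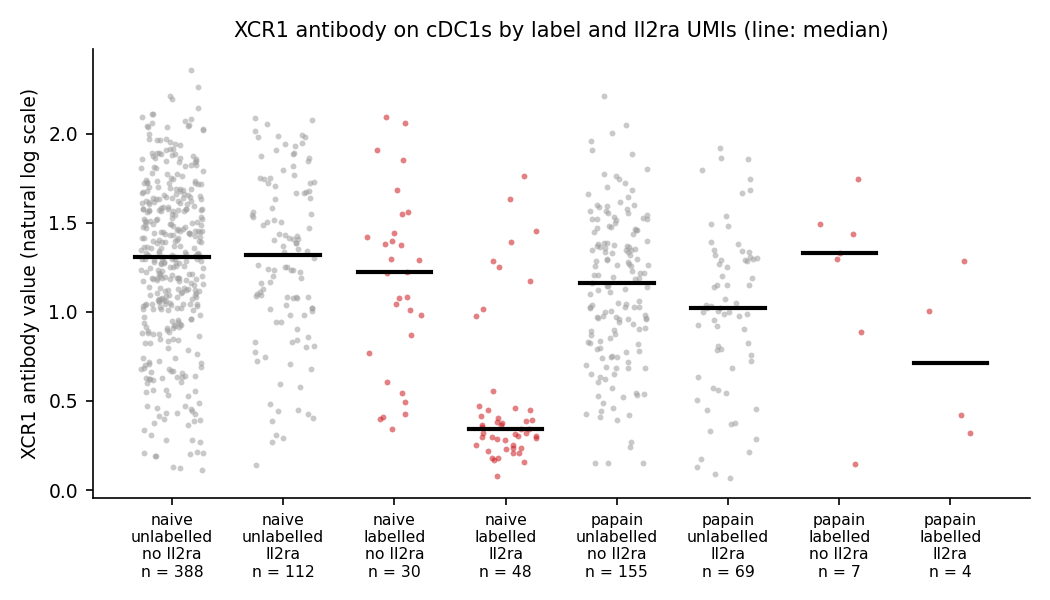
XCR1 antibody value on the authors' natural log scale (vertical axis) of single cDC1s by library, conjugation label and presence of an Il2ra UMI (horizontal axis); each point is a cell and the line is the median. Labelled naive cells with Il2ra have a median of 0.343, against 1.22 to 1.32 in the other 3 naive groups.

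The lists of marker genes describe what else lay in the 78 labelled naive cDC1s. Cd3e and Trac define the label, so a higher T cell level there is no finding. All 18 T cell genes were detected in them, with a summed level of 2633 CPM against 161 CPM in unlabelled naive cDC1s. Over all genes with at least 10 CPM in either group, 14.5% were higher and 2.57% lower by 2-fold or more in labelled cells, with a median log2 ratio of 0.15. Of these, genes under 10 CPM in unlabelled cells passed only through the labelled group, so the lists were counted over genes with at least 10 CPM in unlabelled cells, a choice made after the values were seen. Over all such genes, 6.05% were higher and 3.04% lower by 2-fold or more. The 8 DC genes summed to 10289 against 13998 CPM, with 0 of 8 past 2-fold. Per cell, MHCII genes and Cd74 had a median of 1362 CPM in labelled and 3909 CPM in unlabelled cells. Cells low in MHCII mRNA were 26 of 78 labelled and 6 of 500 unlabelled ones, and those 26 held 75 of the 174 Il2ra UMIs. The 7 cDC1 genes summed to 544 against 925 CPM, and 1 of 4 counted, Irf8, a factor of cDC1 development, was past 2-fold lower with 285 against 617 CPM. Xcr1 mRNA was 25.7 against 15.2 CPM and Clec9a, a receptor for dead cells, 7.45 against 5.11 CPM, both without passing 2-fold. Between labelled cells with and without Il2ra, Xcr1 was 16.5 and 40.5 CPM, Clec9a 2.20 and 15.9 CPM and Irf8 168 and 472 CPM, the direction that the XCR1 antibody had between these cells. Itgae, which encodes CD103 and is also made by T cells, was 46.1 against 1.12 CPM. NK cell genes summed to 71.1 against 14.3 CPM, cDC2 genes to 60.3 against 44.4 CPM, LC genes to 26.4 against 40.5 CPM and B cell genes to 40.7 against 52.3 CPM, with Cd79a and Ms4a1 at 0 UMIs in labelled cells and 1 of 2 B cell genes counted, Igkc, past 2-fold lower. The 3 ILC2 genes, Gata3, Rora and Il1rl1, summed to 344 against 10.7 CPM and the 3 listed gamma-delta T cell genes to 76.6 against 0.249 CPM, and Il1rl1 was at 0 UMIs in labelled cells. The part of these other cell types in the Il2ra difference was not tested.

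Of 24 further regulatory T cell genes, 20 were listed, and 4 of those had at least 10 CPM in unlabelled naive cDC1s, of which 0 was past 2-fold in either direction. Another 8 had at least 10 CPM in labelled cells alone. Among those 8, Icos, a costimulatory receptor, was 434 against 9.85 CPM, Maf, a transcription factor of several T helper subsets, 110 against 2.12 CPM, and Ikzf2 85.4 against 6.24 CPM. Tnfrsf4, which encodes OX40, was 263 against 460 CPM and did not pass 2-fold. Izumo1r, which encodes folate receptor 4 and is abundant in regulatory T cells, was 168 CPM in the 22 Foxp3 droplets and 0.678 CPM, 1 UMI, in labelled naive cDC1s. Entpd1, Il10 and Il1rl1 had 0 UMIs in labelled naive cDC1s. The Foxp3 droplets held 1, 0 and 4 UMIs of them, too few to set the groups apart. In the Foxp3 droplets Tnfrsf4 was at 415 CPM, Ikzf2 at 298 CPM, Tnfrsf1b, a TNF receptor, at 244 CPM and Icos at 200.5 CPM.

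Foxp3 itself was at the limit of detection. Labelled naive cDC1s had 0 Foxp3 UMIs. Set at 3 UMIs, as above, this allows up to 2.03 CPM and a UMI in up to 3.85% of the cells. The exact 95% intervals reach 2.50 CPM and 4.62%. Labelled naive droplets without antibody data, the reference, had 2.58 CPM (0.948 to 5.63) in 3 of 237 cells. Both limits, 2.03 and 2.50 CPM, lie below the reference value but inside its interval, so a difference in Foxp3 between these groups was not detectable at this depth. Il2ra thus lay with Foxp3 in some droplets of the cDC2 and LC classes and without antibody data, while no Foxp3 UMI was seen in naive cDC1s, where 174 of 327 Il2ra UMIs lay in labelled and 153 in unlabelled cells. Ctla4 was found in 2 of the 48 labelled naive cDC1s with Il2ra and in 5 of the 30 without it. Tnfrsf18 was in 25 of 48 and 11 of 30, and Ikzf2 in 32 of 48 and 8 of 30. Icos was in 41 of 48 and 12 of 30, and Gata3 in 20 of 48 and 8 of 30. These 4 shares were higher in cells with Il2ra, while that of Ctla4 was lower, with no test made. In cells with 10 or more CD3 and T cell receptor UMIs, Ikzf2 was in 32 of 39 with and 7 of 15 without Il2ra. Icos was in 38 of 39 and 10 of 15 of them, and Ctla4 in 2 of 39 and 3 of 15. Gata3, in 19 of 39 and 8 of 15, was then lower with Il2ra, and Tnfrsf18 was nearly level, in 22 of 39 and 8 of 15.

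Within labelled naive cDC1s, cells with and without Il2ra differed in T helper genes chosen after the values were seen. They also differed in T cell content, with a median of 33.5 CD3 and T cell receptor UMIs with Il2ra and 10.5 without it, and with 10 or more such UMIs in 39 of 48 and 15 of 30 cells. Rora, a nuclear receptor of type 17 and innate-like lymphocytes, was found in 39 of 48 cells with and 4 of 30 cells without Il2ra. Cxcr6, a chemokine receptor of tissue T cells, was in 36 of 48 and 4 of 30, and Maf in 33 of 48 and 1 of 30. Ccr6 was in 31 of 48 and 3 of 30, and Il23r in 19 of 48 and 3 of 30. Il17a itself was in 10 of 48 and 0 of 30 and Il22 in 4 of 48 and 0 of 30. Areg, an epidermal growth factor receptor ligand, was in 11 of 48 and 0 of 30, with up to 40 UMIs in 1 cell. Trdc, the T cell receptor delta constant gene, was in 1 of 48 and 2 of 30, while Tcrg-C1 had 33.2 CPM in labelled and 0.125 CPM in unlabelled cells. Among cells with 10 or more CD3 and T cell receptor UMIs, Rora was in 37 of 39 cells with and 4 of 15 cells without Il2ra. Maf was in 31 of 39 and 1 of 15 of them, and Cxcr6 in 35 of 39 and 3 of 15. Gata3 and Tnfrsf18 had no such gap in these cells, as given above. No test was made of these genes.

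**Figure D5:**
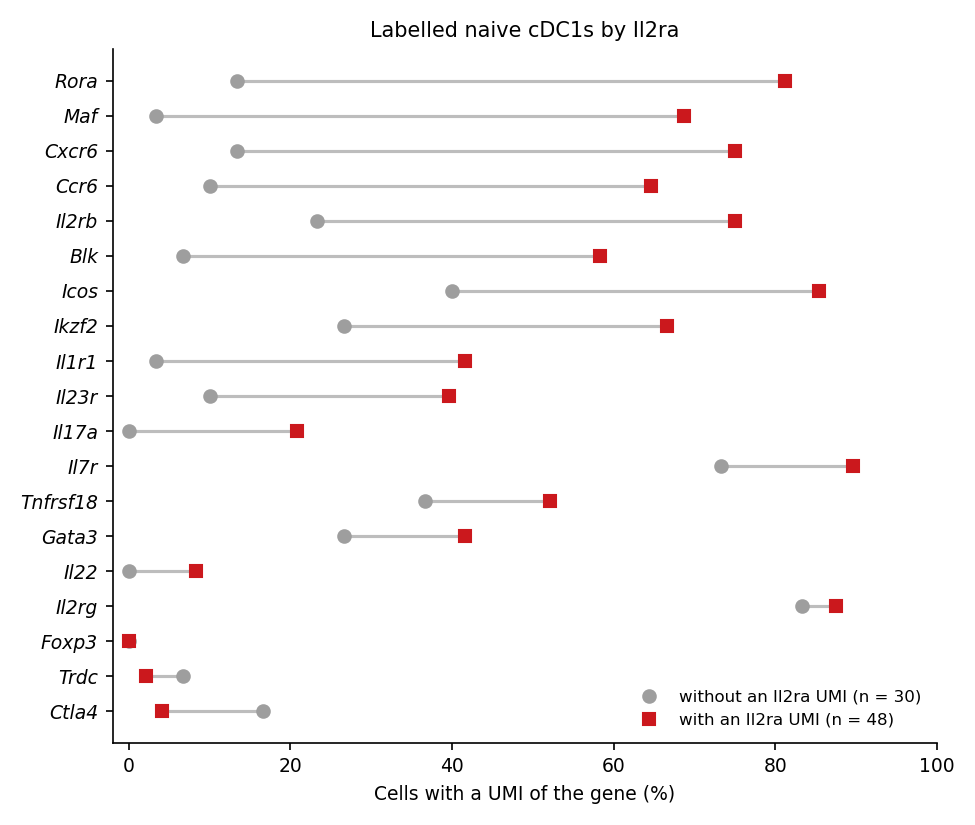
Share of labelled naive cDC1s with a UMI of each gene (horizontal axis, percent) for cells with an Il2ra UMI (red squares, 48 cells) and without one (grey circles, 30 cells). Rora, Maf, Cxcr6 and Ccr6 lie far to the right in cells with Il2ra, Il2rg differs little, and Foxp3 is at 0 in both.

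The other chains and signalling genes of the IL-2 receptor were followed in a list of 18 genes, all listed. Il2rb was 129 CPM in labelled and 5.49 CPM in unlabelled naive cDC1s and was found in 36 of 48 labelled cells with Il2ra and 7 of 30 without it. Il2rg was 161 and 53.4 CPM. Il7r, the interleukin-7 receptor, was 478 and 66.5 CPM, and Cish, an inhibitor induced by STAT5, 44.0 and 0.998 CPM. Of 12 genes with at least 10 CPM in unlabelled cells, 2, Il2rg and Il7r, were higher by 2-fold or more in labelled cells and 0 were lower, beside the 6.05% of all such genes. Il2rb, Cish, Bcl2, a survival factor, and Socs3, a cytokine signalling inhibitor, had at least 10 CPM in labelled cells alone. Il15ra, at 138 and 247 CPM, and Il15, at 135 and 185 CPM, which DCs present to other lymphocytes, were not past 2-fold.

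In unlabelled CD301bhi DCs, Il2rb was 2.43 CPM in the naive library against 0.0417 CPM in the papain one. Il2rg was 80.7 and 89.6 CPM there, and Jak1, a kinase of the receptor, 144 and 158 CPM. In unlabelled CD301blo DCs Il2rb was 18.0 CPM in the naive and 0.173 CPM in the papain library, and it reached the minimum of 10 CPM through the naive cells alone. Some markers of other cells moved with it in unlabelled cells of that class, and others did not. Of the 5 NK cell genes, Gzma, Nkg7, Ncr1 and Klrb1c were under 10 CPM in both libraries. Their log2 ratios of papain over naive were -3.26, -2.25, -1.68 and -1.68, while Klrk1 had 1.31. Of the 18 T cell genes, 4 had at least 10 CPM in either library. Cd4, at -3.64, and Cd8a, at -1.34, were lower by 2-fold or more. Il7r, at 0.46, and Tcf7, at 0.73, were not past 2-fold. Cd3e and Trac define the label, so their absence from unlabelled cells is no finding. The part of these markers in the Il2rb values was not tested. Between 13 and 14 of the 18 genes had at least 10 CPM in each class, and their median log2 ratio of papain over naive was 0.15 in CD301bhi, 0.22 in CD301bint and 0.05 in CD301blo DCs, 0.41 in cDC1s and 0.01 in LCs. Over all genes tested it was 0.09, 0.05, 0.02, 0.05 and 0.06. Higher by 2-fold or more was Socs2, a STAT5 target, in CD301blo DCs and LCs, and Socs3 in LCs, against 0 genes in the other 3 classes. Of all genes, 2.54% were higher in CD301blo DCs and 4.17% in LCs. The share was 2.02% in CD301bhi DCs, 2.28% in CD301bint DCs and 2.69% in cDC1s. Of the list, 1 of 14 genes, Il2rb, was lower by 2-fold or more in CD301blo DCs and 0 in the other classes. Lower by 2-fold or more were 3.64%, 4.39%, 5.45%, 3.23% and 2.27% of all genes in CD301bhi, CD301bint and CD301blo DCs, cDC1s and LCs. The list median differed from that of all genes by more in cDC1s than in the other classes, and 0 of its 13 genes tested there was past 2-fold.

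The genes whose levels most resembled Il2ra over the 10 groups of unlabelled cells, 5 classes in 2 libraries, were found by Pearson correlation of log2 values among 8400 genes. The first was the gene model Gm7059, with r = 0.995, and the tenth Rpl31-ps16, with r = 0.978. Between them came Gm6745, Cast, which encodes the calpain inhibitor calpastatin, Rpsa-ps9, Gm37881, Atp5g3, a subunit of ATP synthase, Gm45454, Gm6166 and Fabp4, a fatty acid binding protein. Fabp4 went from 29.6 CPM in naive to 110 CPM in papain CD301bhi DCs and from 1.75 to 22.8 CPM in cDC1s. Several of these names are pseudogenes or unnamed models whose reads may come from a near-identical gene. The 10 points share 2 libraries and their depth, and by rank correlation 2 of the 10 genes remained in the list.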

How the data were processed

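CITEseq libraries of 1 naive and 1 papain sample were used. The authors ran Cell Ranger 3.0.1 and Partek (submitters' processing notes), with mm10. Expression values deposited by the authors are log2 of UMIs scaled per cell plus 1; UMIs were recovered from them, and 100% of those at or below 50 UMIs lay within 0.02 of a whole number. Antibody values deposited by the authors are on a natural log scale, and the deposited antibody totals are counts (medians 7586 and 3852). Columns not mapped to a sample numbered 0. Depth was 3637 to 57378 UMIs per naive and 2682 to 57150 per papain cell, so single UMIs decide whether a rare gene is seen. CPM have exact Poisson, shares exact Clopper-Pearson and ratios exact conditional binomial 95% intervals (scipy 1.17.1, numpy 2.4.6, pandas 2.3.3, Python 3.11.15); UMIs mark molecules, and intervals cover counting error only. Log2 ratios had 1 CPM added. No doublet caller was run, and labelled droplets were shown apart. Scripts were tested on simulated data. Some listed genes are not reported here. Genes named were the 4 members, list genes (all counted; the 5 highest per list in Foxp3 droplets and others singled out after their values were seen), and the 10 genes most like Il2ra. No naive cDC1 held Foxp3, so the planned split by Foxp3 was replaced by the conjugation label, and calls across genes used unlabelled cells, both chosen after seeing the data. The members and lists were chosen with earlier results of these data known.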

Additional observations from a re-analysis of the deposited data

Results flagged for a closer look

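The difference in Il2ra between labelled and unlabelled cDC1s had opposite directions in the 2 libraries. It was 6.18-fold in the naive library and 0.533-fold (0.171 to 1.27) in the papain library, where the labelled group had 5 Il2ra UMIs in 11 cells. In LCs the ratio was 1.25-fold (0.451 to 2.82) in the naive library, with 6 UMIs in 14 labelled cells, and 0.749-fold (0.610 to 0.911) in the papain library. These 2 classes were picked out because the directions differ and at least 1 of the 2 counting intervals leaves out 1. The difference between the libraries was not tested, since each condition has 1 library.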

How the results depend on the processing

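Values were recomputed with 1 choice changed at a time, and a value counts as kept when it lies inside the reported value's counting interval. Of 138 recomputed values of Il2ra levels by class, cDC1 shares, ratios and lists, 115 were kept, 21 moved and 2 reversed. Of 273 others, on single genes, 170 were kept and 103 moved. The Il2ra level of all naive cDC1s, 34.4 CPM, was 19.1 without labelled cells, 19.0 without cells with a CD3 or T cell receptor UMI and 27.6 without cells low in MHCII mRNA (the last chosen after seeing the data). The naive cDC1 share of 27.7% was 22.4% without labelled cells, 18.8% after thinning and 10.9% for 2 or more UMIs, and the papain share of 31.1% was 24.1% and 17.0%. As a mean of CPM over cells, Il2ra was 69.0 in naive CD301blo, 138 in papain CD301bint and 157 in papain CD301blo DCs and 83.4 in papain LCs, and papain LCs had 86.6 without the deepest 5% of cells. The papain over naive log2 ratio of cDC1s was 0.61 with all cells and 1.47 without labelled ones. With 10 CPM added, the ratio over all cells was 1.03 in CD301bhi DCs and 1.75 in LCs, and 0.98 in CD301bint DCs, no longer past 2-fold. Il2ra per Foxp3 UMI in the naive reference was 28.0 without the droplet richest in Foxp3 and 1.17 in droplets low in MHCII mRNA. The papain ratio of 1.41 between droplets with and without Foxp3 was 2.87 for 2 or more Foxp3 UMIs and reversed to 0.748 when the conjugation label took the place of Foxp3, which tests other droplets. It also reversed, to 0.965, without the 1 Foxp3 droplet with the most Il2ra UMIs (chosen after seeing the data). Of the 10 genes most like Il2ra, 6 remained with labelled cells kept and 2 by rank. Where not shown by the construction of the alternative, the cause was not tested. No paired analysis was possible because each condition has 1 library, and no library could be left out.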
